A study of Caenorhabditis elegans with 2 samples.

Results

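The genes described here are 10 genes of cell division in Caenorhabditis elegans. They are the Aurora kinase genes air-1 and air-2, the Polo-like kinase gene plk-1, the checkpoint kinase gene bub-1, the kinetochore scaffold gene knl-1, the centromeric histone gene hcp-3, the passenger complex gene icp-1, the katanin genes mei-1 and mei-2, and the phosphatase gene cdc-25.1. They were chosen by name, and a probe was taken as theirs where its systematic name led to the gene in a RefSeq gene table. All 10 were found, among 19804 genes named on the array, and all were among the 15298 genes that could be compared between the diets. Together they have 21 probes.

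The data are 2 one-colour microarrays of total RNA from whole young adult N2 worms. Both groups were kept at 20 °C and received 1 bacterium from hatching onward. For 1 group it was Escherichia coli OP50, the standard laboratory food, and for the other Lysinibacillus sphaericus, a soil isolate of a Gram-positive, spore-forming species. There is 1 array per diet, so no test between diets was possible, and no p-value is given; every difference describes these 2 RNA samples. The sex of the worms, their number and the state of the bacteria are not given in the sources used here.

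Cell division rests on a small set of switches. Cyclin-dependent kinase, set free by CDC25 phosphatases, starts it. Aurora and Polo-like kinases build the spindle, and kinetochores on a foundation of centromeric histone tie chromosomes to microtubules while a checkpoint waits for attachment. In the worm, kinetochores form along the whole length of each chromosome, and the oocyte assembles its meiotic spindle without centrosomes, with katanin cutting the microtubules. The somatic cells of the adult no longer divide, while the germ line does, and oocytes are loaded with messages for the first embryonic divisions.

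Every probe of every one of these genes was brighter on the L. sphaericus array. Raw processed signals ran from 188 to 4733 on the OP50 array and from 978 to 49815 on the L. sphaericus array, all 42 readings being well above background by the scanner's flag. The unscaled ratio lay between 5.21 and 11.6 over the 21 probes. The L. sphaericus array was the brighter one as a whole, with a 75th percentile of 3368 against 1440 over all probes, a ratio of 2.34. Differences below are log2 values of L. sphaericus minus OP50 after that percentile was subtracted from each array. Errors given for a gene with several probes are the SD over its probes. For a gene with 1 probe the error is the scanner software's own, close to 10% of each signal, which comes to 0.20 for a log2 difference. Neither holds the spread between worm populations.

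**Figure D1:**
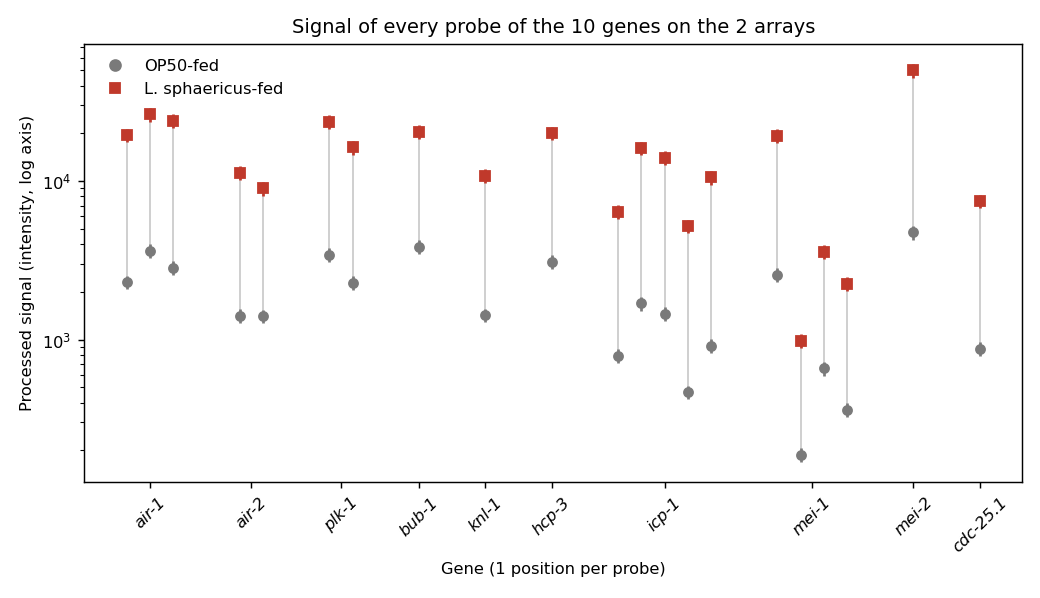
Processed signal of each probe (vertical axis, intensity on a log scale) for the 10 genes, with grey circles for the OP50 array, red squares for the L. sphaericus array and bars for the scanner's error. In all 21 probes the red square lies above the grey circle, with no overlap of the error bars.

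After scaling, all 10 genes were at or past 2-fold on the L. sphaericus side, against 22.1% of all measured genes. Such genes are said below to pass 2-fold upward, and those at or past 2-fold on the OP50 side to pass it downward. The median over the 10 was 1.65, which is 3.14-fold, and the genes ran from 1.19 for bub-1 to 2.17 for mei-2. The median of all 15298 genes was −0.20 with an SD of 1.61, so the median of the 10 lay 1.85 above it. Each of the 10 exceeded between 82.7% and 95.5% of all measured genes. At the 3-fold level 7 of the 10 passed, against 9.87% of all genes, and at the 4-fold level 2 passed, against 5.6%. Downward, 0 of the 10 passed 2-fold, against 32.6% of all genes.

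**Figure D2:**
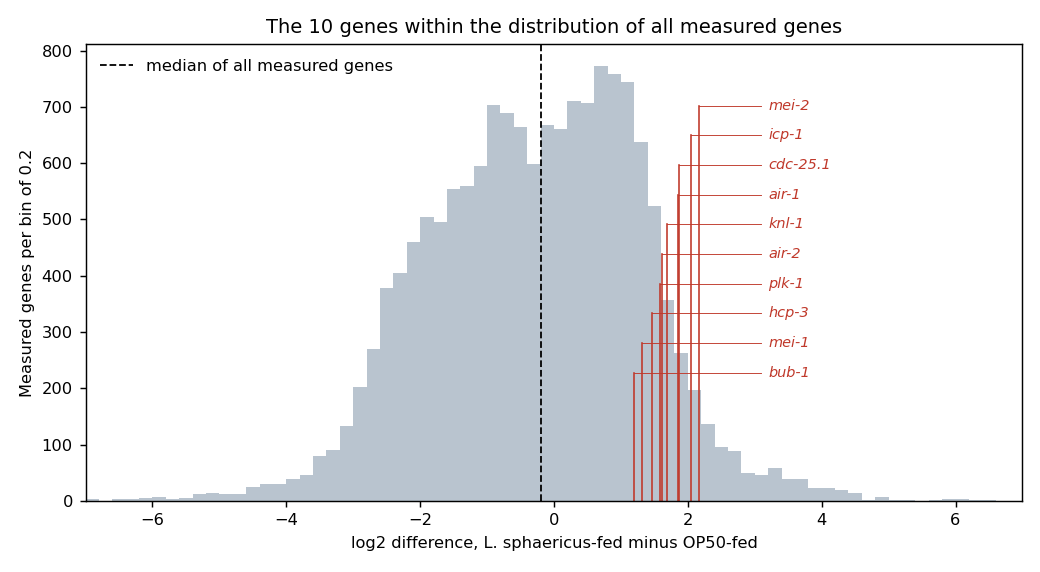
Number of measured genes (vertical axis) per bin of the log2 difference, L. sphaericus minus OP50 (horizontal axis, cropped at both tails), with the 10 genes marked in red and the median of all genes, −0.20, as a dashed line. The 10 genes sit together on the right shoulder, between 1.19 and 2.17, and the tail beyond them holds genes with far larger differences.

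Among the kinases, air-1 encodes Aurora A, which matures centrosomes and builds the mitotic spindle. Its 3 probes read 2300.4, 2846 and 3633 on the OP50 array and 19476, 23931 and 26336 on the L. sphaericus array. The lowest L. sphaericus reading was above the highest OP50 reading, and the difference was 1.85 ± 0.13 (SD over 3 probes), or 3.59-fold. Aurora B, the product of air-2, is the kinase of the chromosomal passenger complex, which corrects attachments and guides cytokinesis. Its 2 probes read 1406 and 1415 with OP50 and 8997 and 11247 with L. sphaericus. They gave 1.61 ± 0.22 (SD over 2 probes), 3.05-fold, which is 0.24 below air-1 and within the combined scanner error of 0.29 for a pair of genes.

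The Polo-like kinase PLK-1 acts in centrosome maturation, nuclear envelope breakdown and meiotic chromosome dynamics. The plk-1 probes read 2274 and 3437 with OP50 and 16322 and 23697 with L. sphaericus, a difference of 1.59 ± 0.04 (SD over 2 probes) or 3.01-fold. These 2 probes are annotated to different transcripts of the gene, C14B9.4a and C14B9.4b, and they gave 1.56 and 1.62. The 2 readouts were thus closer to each other than the scanner error of either.

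BUB-1 is a kinase of the spindle checkpoint that sits on kinetochores and, in oocytes, on the ring around each pair of meiotic chromosomes. The bub-1 probe read 3833 with OP50 and 20501 with L. sphaericus. At 1.19 ± 0.20 (scanner error, 1 probe), 2.29-fold, it was the smallest difference of the 10, and it exceeded 82.7% of all measured genes. It lay closest to the 2-fold level and was the gene that dropped under it, at 0.99, when the percentile was taken over detected probes only. In that setting 9 of the 10 passed upward, against 17.2% of all genes.

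For the structural genes of the kinetochore, hcp-3 encodes the CENP-A histone that marks centromeric chromatin, and knl-1 the scaffold that recruits both the microtubule-binding complex and BUB-1. The hcp-3 probe read 3090 with OP50 and 20025 with L. sphaericus, and the difference was 1.47 ± 0.20 (scanner error), 2.77-fold. The knl-1 probe read 1424 and 10767, with a difference of 1.69 ± 0.20 (scanner error), 3.23-fold. Each of the 2 genes has 1 probe, so no second probe stands beside either value.

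INCENP, the product of icp-1, holds the passenger complex together and switches on AIR-2. It is the best covered of the 10 genes, with 5 probes that read from 465 to 1690 with OP50 and from 5186 to 16123 with L. sphaericus. The difference was 2.05 ± 0.21 (SD over 5 probes), 4.13-fold. The 3 probes annotated by the cosmid name gave 1.79, 2.03 and 2.05, and the 2 annotated by a RefSeq accession gave 2.25 and 2.31, so every probe was past 3-fold. icp-1 lay 0.44 above its partner air-2, beyond the combined scanner error of 0.29, but the lowest icp-1 probe, at 1.79, was close to the higher air-2 probe, at 1.76.

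Katanin has a catalytic subunit, MEI-1, and a subunit that targets and activates it, MEI-2, and it is needed in the meiotic spindle of the oocyte. The mei-2 probe gave the brightest readings of the 21, 4733 with OP50 and 49815 with L. sphaericus. Its difference, 2.17 ± 0.20 (scanner error), 4.50-fold, was the largest of the 10. The mei-1 probes read from 188 to 2569 with OP50 and from 978 to 19312 with L. sphaericus, and the difference was 1.32 ± 0.24 (SD over 4 probes), 2.49-fold.

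The 2 katanin subunits thus stood 0.85 apart, against a combined scanner error of 0.29. This gap depends on which mei-1 probe is read and on the normalization. The brightest, annotated to transcript T01G9.5b, gave 1.68, and the other 3 gave 1.16, 1.22 and 1.41. Set against the brightest alone, the gap to mei-2 was 0.49. With quantile normalization mei-1 was at 1.61 and mei-2 at 2.12, and with loess centring they were at 1.66 and 2.15. In both of these settings mei-1 lay above knl-1, unlike in the scaling used.

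CDC-25.1 removes the inhibitory phosphates from cyclin-dependent kinase and is needed for germ cell proliferation and early embryonic divisions. The cdc-25.1 probe read 874 with OP50 and 7457 with L. sphaericus. Its difference of 1.87 ± 0.20 (scanner error), 3.65-fold, was exceeded by mei-2 and icp-1 alone among the 10.

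In order of difference with the scaling used, the genes were mei-2, icp-1, cdc-25.1, air-1, knl-1, air-2, plk-1, hcp-3, mei-1 and bub-1. The 9 gaps between neighbours in that order ran from 0.02 to 0.18, all within the combined scanner error, so neighbours in the order were not separated. The ends of the order were further apart, mei-2 exceeding bub-1 by 0.98, which is 1.97-fold. Of the 45 possible pairs, 25 differed by more than 1 combined scanner error. A gene with several probes entered with the mean of their scanner errors, not reduced for the number of probes. The limit is only 1 combined scanner error wide and leaves out the spread between worm populations. It therefore does not show that the genes of a pair differ. The SD over the 10 genes was 0.31, against 0.18 as the median SD between probes of the same gene in 2761 genes with at least 3 measured probes.

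The scaling matters to every size given here, because the arrays differed in overall brightness. From −0.20 in the scaling used, the median of all genes moved up by 0.64 with scaling on the median of probes, by 1.23 with no scaling and by 0.79 with scaling on ribosomal protein genes. It moved up by 0.29 with quantile normalization and by 0.31 with loess centring, and it moved by −0.20 with the percentile over detected probes. All 10 genes were higher with L. sphaericus in each of 12 alternative settings, with gene values from 0.99 to 3.40. The median of the 10 relative to all genes ranged from 1.49 to 2.13. mei-2 was the highest of the 10 in 12 of these 12 settings, and bub-1 the lowest in 11, the exception being normexp background correction, where mei-1 was lowest at 1.097. Several of these settings could not change the order. Median, detected-probe percentile, ribosomal and no scaling shift every gene alike, and the series table holds the same intensities. Both filters left the values of the 10 genes unchanged.

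**Figure D3:**
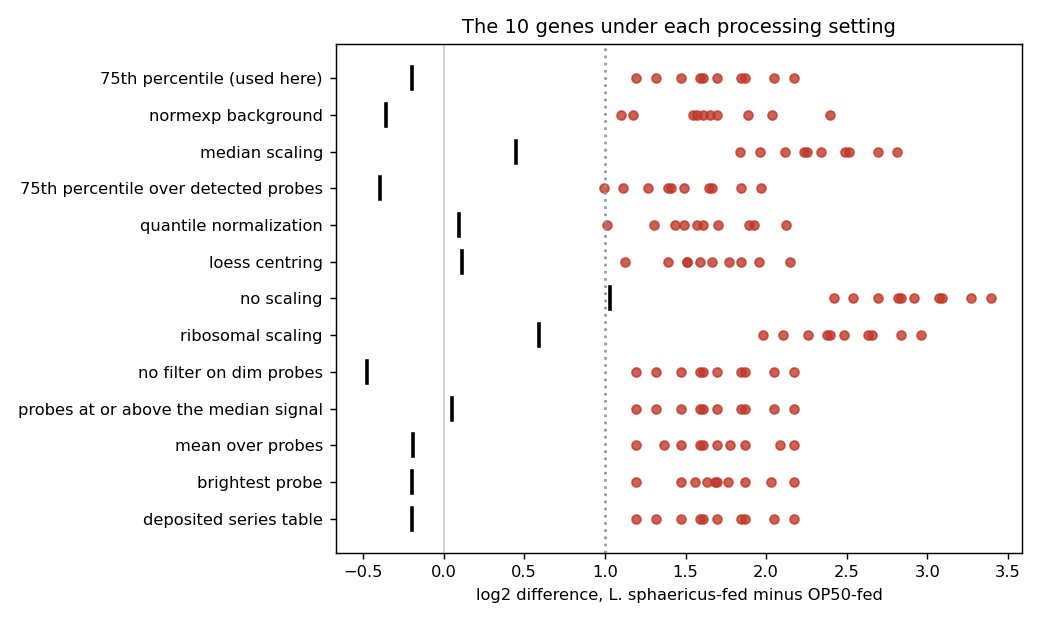
Log2 difference, L. sphaericus minus OP50 (horizontal axis), of the 10 genes (red points) under the scaling used and 12 alternatives (rows), with the median of all measured genes as a black bar and the 2-fold level as a dotted line. The points move together with the black bar and stay to its right in every row, and with the percentile over detected probes bub-1 falls to 0.99.

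Close relatives of the 10 genes did not all follow them. The cdc-25 family went both ways. The gene cdc-25.3 read 569 with OP50 and 17294 with L. sphaericus, a difference of 3.70 ± 0.20 (scanner error, 1 probe) or 12.98-fold. The gene cdc-25.2 read 38.7 and 637, a difference of 2.81 (7.03-fold) that rests on an OP50 signal not far above the lowest well above background there, 15.7.

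The gene cdc-25.4, whose product has been linked to male mating behaviour, was the only one of 109 other measured division genes (listed below) that passed 2-fold downward. It read 398 with OP50 and 174 with L. sphaericus, so it was the dimmer reading even before scaling. Its difference was −2.42 (5.34-fold lower) on 1 probe, and it ranged from −2.62 to −1.19 over the settings that measured it. cdc-25.1, at 1.87, stood between these relatives.

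Of the other Polo-like kinase genes, plk-3 read 4649 and 4936 on its 2 probes with OP50 and 43387 and 47739 with L. sphaericus, a difference of 2.02 ± 0.04 (SD over 2 probes). The gene plk-2, which acts in meiotic chromosome pairing alongside plk-1, read 1480 and 6561, a difference of 0.92 ± 0.20 (scanner error, 1 probe). It was under 2-fold in the scaling used and ranged from 0.72 to 2.15 over the settings. The second CENP-A gene, cpar-1, read 1879 and 29340, a difference of 2.74 (6.67-fold), larger than the 1.47 of hcp-3. The products of hcp-3 and cpar-1 are close in sequence, as are those of plk-1 and plk-2, and how far a probe reads its gene's relative was not tested.

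The wider machinery was described with 10 lists of division genes that leave out the 10. Over these lists, 109 of 110 genes were measured, and 79 (72.5%) of them passed 2-fold upward, 29 lay between and 1 passed it downward, against 22.1% and 32.6% of all genes. The median was 1.42, or 1.62 above that of all genes, and 105 of the 109 lay above 0. The 1 gene not measured was sas-5, which was below background on both arrays. Members of a list are not replicates, and these lists were drawn up with earlier results of these data known, so they are given as descriptions. The counts of the single lists below stand against the same shares, 22.1% upward and 32.6% downward, unless another setting is named.

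In the core kinetochore, all 11 genes passed 2-fold upward, with a median of 1.81 and a range from 1.45 to 2.30. The count was 11 in each of the 12 alternative settings too. In those settings the share of all genes passing upward ran from 17.2% to 50.6%, the latter with no scaling. The knl-1 value of 1.69 falls inside that range. The highest were mis-12, a subunit of the complex that joins KNL-1 to chromatin, which read 1746 with OP50 and 20053 with L. sphaericus (2.30), and kbp-1, a KNL-1 binding protein gene, which read 1575 and 15396 (2.06). The gene hcp-4 encodes CENP-C, the link between HCP-3 and the kinetochore, and its 4 probes gave 1.65 ± 0.05 (SD over 4 probes).

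In the passenger complex, 3 of 4 listed partners and regulators of AIR-2 and ICP-1 passed 2-fold upward (median 1.32). The highest were lab-1, which restrains AIR-2 on meiotic chromosomes, at 1.65 on 1 probe (2109 with OP50 and 15522 with L. sphaericus) and csc-1, a complex subunit, at 1.42 ± 0.27 (SD over 2 probes). The survivin gene bir-1, the remaining subunit, was at 1.23. The 4 subunits of the complex therefore ran from 1.23 for bir-1 to 2.05 for icp-1. The kinase gene tlk-1, known to activate AIR-2, was at 0.50 ± 0.15 (SD over 3 probes).

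All 4 other checkpoint genes passed 2-fold upward (median 1.64). The Mad2 gene mdf-2 was at 2.04, but its 3 probes were far apart, from 0.45 to 2.37. With the brightest probe of each gene alone, mdf-2 was at 0.45. In that setting 3 of the 4 passed upward, against 21.9% of all genes. The Mad3 gene san-1 was at 1.76 ± 0.16 (SD over 5 probes). The partner of BUB-1, bub-3, was at 1.52 and the Mad1 gene mdf-1 at 1.29. By the median over probes, bub-1 at 1.19 was the lowest of the 5 checkpoint genes, within the combined scanner error of mdf-1. The lowest mdf-2 probe lay below it.

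Among 9 outer kinetochore genes, 6 passed 2-fold upward and 0 downward (median 1.35). The CENP-F-like gene hcp-1 was at 1.85 (2097 with OP50 and 17652 with L. sphaericus), and spdl-1, which brings dynein to kinetochores, was at 1.53. The remaining genes included the microtubule regulator cls-2 at 0.23 and the dynein cofactor nud-2 at −0.08, both near equality.

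On the female meiotic spindle, the setting in which katanin acts, 9 of 14 genes passed 2-fold upward and 0 downward (median 1.38). The highest was mesp-1, whose product works with the kinesin KLP-18 in making the spindle bipolar, which read 8166 with OP50 and 76394 with L. sphaericus (3.999-fold). klp-18 itself was at 1.86, on the 1 of its 5 probes that was well above background on both arrays, and at 0.22 when dim probes were kept. The adaptor gene mel-26, whose product marks MEI-1 for destruction after meiosis, was at 1.58. Its partner cul-3, a ubiquitin ligase scaffold of many tissues, was at 0.16, and the phosphatase subunit gene ppfr-1, a positive regulator of MEI-1, was at −0.53 ± 0.83 (SD over 4 probes). With median scaling 12 of the 14 passed upward, in a setting where 37.9% of all genes did.

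Partners and substrates of the kinases, and the chromosome proteins they act on, make up 5 further lists. Among 14 genes of CDK1 control, 10 passed 2-fold upward and 1 downward (median 1.97). The cyclin B gene cyb-3 was at 2.87 ± 0.10 (SD over 3 probes). The kinase gene wee-1.3, which opposes CDC25, was also higher, at 1.08 ± 0.34 (SD over 3 probes), while cdc-25.4 stood on the other side.

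Of 12 measured centrosome genes, 8 passed 2-fold upward and 0 downward (median 1.40). The highest were mzt-1, a microtubule nucleation gene, at 1.66 ± 0.09 (SD over 5 probes) and tpxl-1, whose product activates AIR-1, at 1.61 ± 0.82 (SD over 2 probes). The large spread of tpxl-1 comes from probes at 1.03 and 2.19.

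Of 14 genes of the anaphase-promoting complex, separase and securin, 11 passed 2-fold upward and 0 downward (median 1.37). The activator gene fzy-1, the Cdc20 that the checkpoint holds in check, read 1305 with OP50 and 16740 with L. sphaericus (2.45), and apc-2 was at 1.95. The other activator gene, fzr-1, was at 0.13 ± 0.70 (SD over 5 probes). The listed gene mat-2 was not matched in the gene table and is not analysed here.

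Of 15 cohesin and condensin genes, 11 passed 2-fold upward and 0 downward (median 1.27), led by the condensin gene capg-2 at 2.15 and the mitotic cohesin gene scc-1 at 1.83. Cytokinesis genes were the least shifted, 6 of 12 passing 2-fold upward and 0 downward (median 1.03). There the central spindle kinesin gene zen-4, whose product is a substrate of AIR-2, was at 2.30 ± 0.37 (SD over 5 probes) and the anillin gene ani-1 at 1.96. The lowest values were those of the small GTPase gene rho-1 at 0.01 and the formin gene cyk-1 at −0.39 ± 0.16 (SD over 6 probes). With median scaling the cytokinesis count was 10, against the 37.9% of all genes in that setting.

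**Figure D4:**
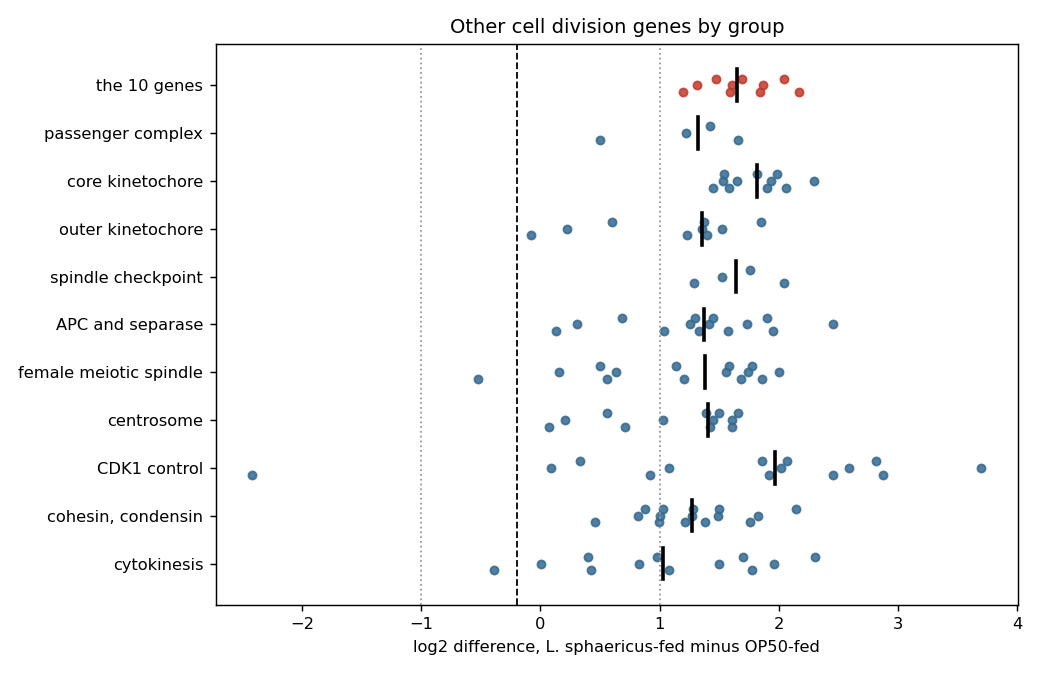
Log2 difference, L. sphaericus minus OP50 (horizontal axis), of the measured genes in each list of division genes (rows, 1 point per gene), with list medians as black bars, the median of all genes, −0.20, as a dashed line and 2-fold levels as dotted lines. The 10 genes (red) and the core kinetochore lie wholly to the right of the 2-fold line, the other lists except the spindle checkpoint have points between the lines, and cdc-25.4 stands alone on the left at −2.42.

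Markers of several cell types also differed between the arrays, and their part in the result was not tested. Which cells the transcripts of the 10 genes came from was not measured. In RNA from whole animals, more cells of a type and more RNA per cell cannot be told apart. Of 12 oocyte and germline markers, 11 passed 2-fold upward and 0 downward, against 22.1% and 32.6% of all genes. Their median was 2.09, against 1.65 for the 10 genes. Their summed level in units of each array's 75th percentile was 49.0 with OP50 and 177 with L. sphaericus, 3.61-fold, while that of the 10 genes was 15.6 and 52.1, 3.35-fold. The oocyte maturation gene oma-2 was highest at 3.26 and the germ granule gene glh-1 lowest at 0.64, and all 12 were well above background on both arrays.

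The sperm markers lay on the other side, with a median of −1.80. Of 13, 11 were past 2-fold downward and 0 upward, against 32.6% and 22.1% of all genes. Their summed level was 18.01 with OP50 and 7.43 with L. sphaericus. They ran from −2.996 for spe-4, a membrane protein gene of sperm formation, to −0.22 for gsp-4, which turned above 0 with median, ribosomal and no scaling. All 13 were well above background on both arrays, and with no scaling 5 of them passed 2-fold downward and 1 upward, against 11.6% and 50.6% of all genes. Sperm and oocyte markers thus differed in opposite directions between the 2 arrays, with the 10 division genes on the side of the oocyte markers.

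The genes listed as markers of zygotic embryos were mixed, and whether each is confined to embryos was not tested. Of 7 measured, 3 passed 2-fold upward and 2 downward, against 22.1% and 32.6% of all genes. Their median was −0.22 and their summed level 4.07 with OP50 and 6.94 with L. sphaericus. They ran from pal-1, which is also a maternal message, at 2.01 to elt-7 at −1.51. The elt-7 probe was bright with OP50 (2926), while end-3, at 1.12, was dim there (49.8). With median scaling 3 passed upward and 0 downward, against 37.9% and 20.8% of all genes in that setting. With dim probes kept, all 11 listed genes had a value, 6 passed upward and 3 downward, and the median turned to 1.04, against 20.5% and 33.2% of all genes in that setting. Of the 4 not measured on both arrays, end-1, tbx-37 and tbx-38 were well above background with L. sphaericus alone and med-1 with OP50 alone, all dim.

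The counts of somatic markers stand against 22.1% upward and 32.6% downward over all genes. Muscle markers had 0 of 8 past 2-fold upward and 1 downward (median −0.84, summed level 86.6 with OP50 and 70.2 with L. sphaericus), from myo-2 at −1.74 to tni-1 at 0.38. Intestine markers had 1 of 8 past it upward and 3 downward (median −0.38). Their summed level was 185 and 109, a sum carried by asp-1, which read 177718 and 202962 before scaling. They ran from mtl-2 at −2.71 to act-5 at 1.06. Neuron markers had 0 of 9 upward and 5 downward (median −1.43, summed level 42.3 and 22.6), from egl-3 at −3.34 to snb-1 at −0.004, whose sign turned with 5 of the settings. Epidermis markers had 4 of 8 upward and 0 downward (median 0.53, summed level 20.7 and 39.6), from col-10 at −0.48, which turned above 0 with median, ribosomal and no scaling, to the adult collagen gene col-19 at 1.73. All somatic markers were well above background on both arrays.

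These counts also depend on the scaling. With the percentile over detected probes, 5 of 8 muscle markers passed downward, against 37.2% of all genes. With no scaling 2 muscle markers passed upward and 0 downward, and 4 intestine markers upward and 1 downward, against 50.6% and 11.6% of all genes. With ribosomal scaling 2 muscle markers passed upward and 0 downward, against 41.1% and 18.4%.

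**Figure D5:**
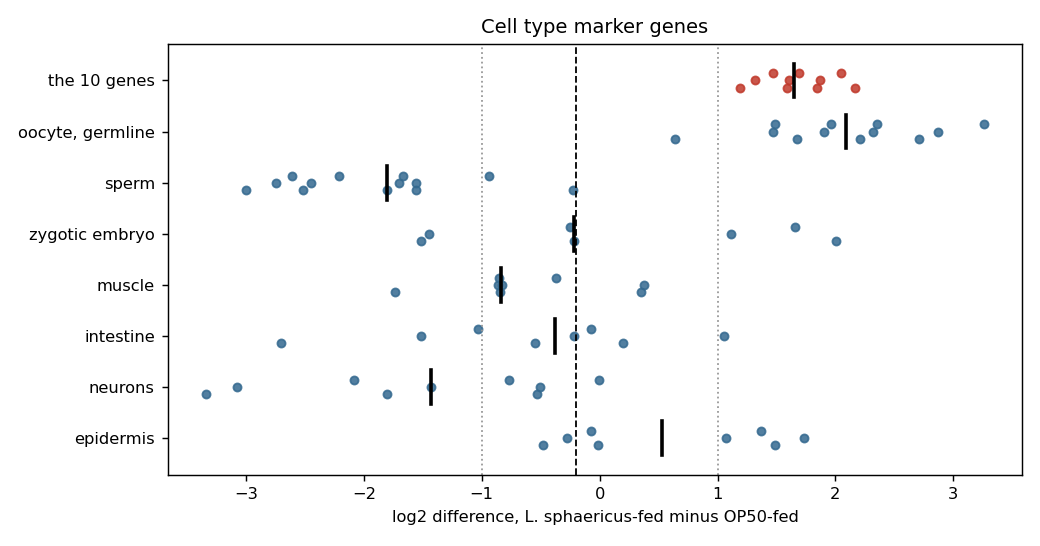
Log2 difference, L. sphaericus minus OP50 (horizontal axis), of marker genes of each cell type (rows, 1 point per gene) beside the 10 genes (red), with list medians as black bars, the median of all genes as a dashed line and 2-fold levels as dotted lines. The oocyte markers overlap the 10 genes and reach beyond them, the sperm markers lie wholly below 0, the muscle, intestine and neuron medians lie below that of all genes, and the epidermis median lies above it.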

How the data were processed

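The authors deposited intensity values per spot on a linear scale, read with Agilent Feature Extraction 11.0.1.1 per the file headers. Its processed signal is background-subtracted and comes with an error and flags, which are other quantities deposited by the authors. The flags were used to leave out spots and probes, and the error gave the scanner errors printed above. Both arrays share a slide and a scan, per the file headers. A deposited table of the series holds the same intensity per probe.

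Control spots and 36 outlier spots were left out, and none was saturated. Of 43803 non-control spots, 76.1% and 75.5% were well above background with OP50 and L. sphaericus. The number of arrays limits the precision. Processed signals were put on the log2 scale, averaged per probe (43579 probes), and each array's 75th percentile was subtracted. Genes were given the median of their probes well above background on both arrays (31043 probes). Names came from a RefSeq table of WBcel235 (34295 probes matched). The array design cites another build, so no coordinates are given, and probe sequences were not used here. The code was tested on simulated data.

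The 10 genes, the lists and the naming rule were chosen with earlier results of these data known. The rule names the 10 genes, 6 relatives, up to 2 genes per direction in each list, and both ends of each marker list; other genes named in the text were picked as partners after their values were seen. The alternatives were normexp background correction (limma 3.58.1, offset 50, on the median signal because the files hold no mean signal), 6 other scalings (loess span 0.3), 2 filters, 2 summaries over probes, the series table, and thresholds of 1.5-fold and 3-fold. Python 3.11.15 was used.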

Additional observations from a re-analysis of the deposited data

How the results depend on the processing

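All 10 genes passed 2-fold upward in 11 of 12 alternatives to the scaling, background, filter, probe summary and source, and 9 with the percentile over detected probes. The share of all genes passing ran from 17.2% with that percentile to 50.6% with no scaling. At 1.5-fold 10 passed, against 32.5% of all genes, and at 3-fold 7 passed, against 9.87%. The median of the 10 relative to all genes, 1.85 as reported, moved by more than the repeated-spot SD of 0.10 under 5 of the 12 alternatives. It was 1.98 with normexp, 1.49 with quantile normalization, 1.51 with loess centring, 2.13 without a filter on dim probes and 1.60 with the brighter probes only (at or above the median). With these 2 filters the 10 kept their own median of 1.65, and that of all genes moved to −0.48 and 0.05. With normexp, quantile and loess the median of the 10 was 1.63, 1.59 and 1.63. That of all genes was −0.35, 0.10 and 0.12. Why the median of all genes moved was not tested. Counts over all genes depended on the scaling. Percentages in the next 2 sentences are the share higher among the genes past 2-fold in either direction, not among all genes. From 3381 higher and 4986 lower (40.4% higher), they became 5796 and 3177 (64.6%) with median scaling and 7747 and 1770 (81.4%) with no scaling. They became 6289 and 2812 (69.1%) with ribosomal scaling, and the share was 50.5% and 51.5% with quantile and loess normalization. With those brighter probes 3287 of 11655 measured genes were lower, which is 28.2% of them, against 32.6% of 15298 as reported. At the stricter 3-fold threshold 1510 genes were higher, 3321 lower, and 40 of the 109 other division genes higher. No single gene of the 10 changed direction. No paired analysis was possible because each diet has 1 array and the labels give no replicate numbers. Dim signals limit the value of cdc-25.2 and the count of embryo markers.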

Other observations

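The protein-coding genes next to the 10 on their chromosomes, in the order of the gene table, went both ways. Of 20 neighbours, 19 were measured, and 9 of them passed 2-fold upward with L. sphaericus (47.4%, against 22.1% of all genes), 6 downward and 4 neither way, with a median of 0.93 and a range from −2.21 to 1.89. bub-1 lay between lin-61 at 1.19 and ztf-15 at 1.89, and icp-1 between epg-2 at 1.84 and Y39G10AR.9 at 1.32. knl-1 lay between C02F5.2 at −1.56 and F09G8.5 at −2.17, and so was higher beside neighbours that were both lower. At some other genes the neighbours were on opposite sides, as at air-2, between B0207.6 at 1.32 and gpa-14 at −1.97. The 20 neighbours were set by position alone, but those named here were picked with their values known. Their values were not tested.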
